A study of Mus musculus with 8 samples.

Results

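Homeobox genes encode transcription factors that bind DNA through a homeodomain and lay out the body plan, and several of their families were followed here in mouse embryonic stem cells given 4OHT (4-hydroxytamoxifen) and then an inhibitor of the ERK pathway. The members were chosen by name alone: 123 genes with a probe on the array carried a symbol of the HOX, NKX, LIM (Lhx and Lmx1), DLX, IRX, sine oculis (named with the prefix of Six5), PAX, MEIS and PBX, or TGIF families, or of the small families Gsx, Emx, Vax, Barx, En and Tlx. Of these, 72 were kept because a probe was marked by the scanner as well above background on each array of 1 or more groups, and they stand among 22693 genes and unnamed features tested. Of the 123, 113 are protein-coding and 10 are non-coding or antisense RNAs named after a neighbouring homeobox gene, and 4 of these RNAs were kept (Emx2os, Dlx6os2, Hoxa11os and Vax2os).

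In all 4 groups the medium held LIF, a cytokine that holds back differentiation, and PD173074, which blocks FGF receptors, at 250 nM. One group received 4OHT at 250 nM for 8 h followed by 2 h with PD0325901 at 1 µM, which blocks MEK, the kinase that activates ERK, and the others received 4OHT for 10 h, 4OHT for 8 h, or no 4OHT. Each group had 2 single-colour Agilent arrays of total RNA. 4OHT is commonly used to switch on proteins joined to an altered oestrogen receptor. The labels give no such protein, no cell line and no clone, and do not say whether 4OHT stayed on during inhibition. The design text calls the replicates biological without saying how cultures were kept apart, so the p-values reflect how far these samples differ, and that spread may be technical. In bulk RNA, fewer cells that express a gene and less RNA per cell cannot be told apart.

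HOX genes lie in 4 clusters, named A to D, and are numbered from 1 at the 3′ end of a cluster to 13 at the other end. In the embryo the low numbers are used early and towards the head and the high numbers late and towards the tail, while in embryonic stem cells polycomb proteins hold many homeobox genes at low levels. MEIS and PBX proteins bind DNA together with HOX proteins, TGIF proteins repress targets of TGF-beta and retinoic acid signalling, and the other families pattern organs such as the brain, eye, kidney, muscle and gut.

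Each level is given as log2 of the scanner's processed signal relative to the 75th percentile on that array, and each change is the difference between the means of 2 groups, with limma's standard error after the ± sign. A gene called is one with an adjusted p under 0.05 over all genes tested. Levels of different genes come from different probes and are not set against each other.

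Detection differed by family. Of the 72 kept members, 45 were above background on both arrays in all 4 groups. Among HOX genes 19 of 41 were kept and 7 were above background in all 4 groups, and among PAX genes 4 of 10 were kept. All 7 MEIS and PBX genes were kept, as were 11 of 13 NKX, 8 of 10 LIM, 5 of 6 IRX, 3 of 4 TGIF, 3 of 7 sine oculis, 3 of 10 DLX and 9 of 15 genes of the small families. Of the 51 genes not kept, 27 were above background on no array, among them Hoxb1, Hoxb2, Hoxd3, Hoxd8, Pax5 and Nkx2-1. A gene kept only through groups in which it was high was favoured to differ, so the counts below describe the kept members and are no measure of the families as a whole. Some members were above background on both arrays of 1 group alone: Irx3, Lhx9, Lmx1a, Nkx3-2 and Emx2os in the PD0325901 group, Hoxd1 at 4OHT 10h, Hoxa13 and Hoxd4 at 4OHT 8h, and Dlx4, Gsx2, Hoxb7 and Tlx1 in untreated cells. Others were kept through several treated groups but not through untreated cells, namely Hoxb3, Hoxb4 and Pax7 through both 4OHT times, Hoxa3, Hoxd10 and Pbx4 through the PD0325901 group and 4OHT 10h, and Hoxd11 and Nkx2-3 through all treated groups.

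**Figure D1:**
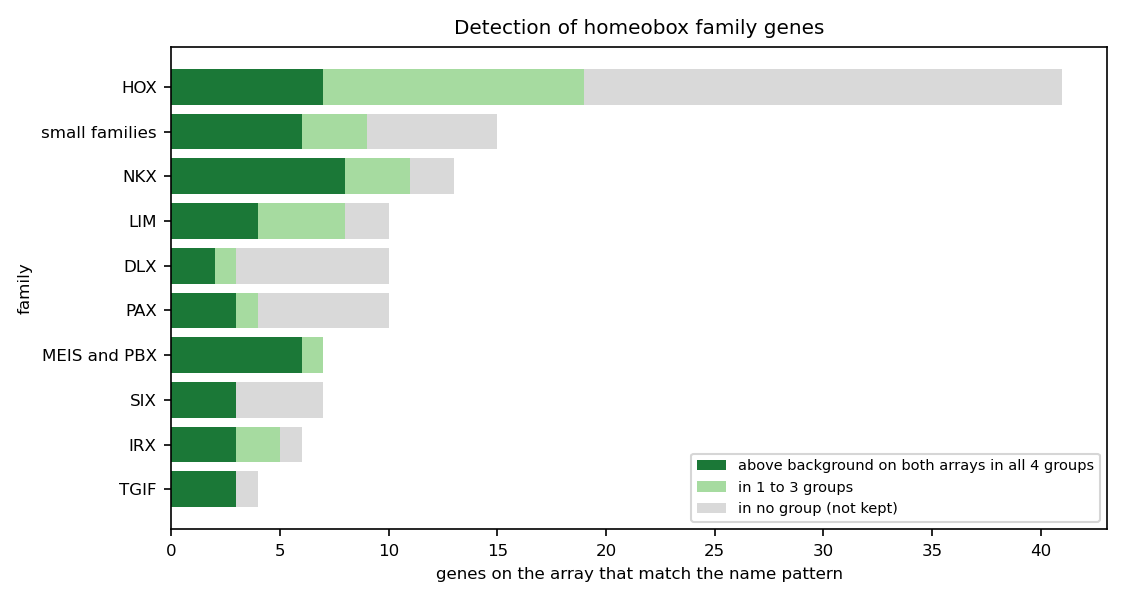
Number of genes on the array (horizontal axis) that match the name pattern in each family, split by whether the scanner marked them above background on both arrays in all 4 groups, in 1 to 3 groups, or in none. HOX has the most genes, 41, of which 19 were kept, and 7 of 7 MEIS and PBX genes were kept.

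All 14 embryonic stem cell markers were above background on all 8 arrays, and 3 rose and 4 fell at 4OHT 10h. Nanog, a homeobox factor of naive pluripotency, fell by 3.10 ± 0.19 at 10 h (adjusted p = 0.000427) and rose by 1.66 ± 0.19 under PD0325901 relative to 4OHT 10h (adjusted p = 0.00996). Pou5f1, the factor that defines the pluripotent state, was not called at 4OHT 10h (0.22 ± 0.10, adjusted p = 0.17) or between PD0325901 and 4OHT 10h (-0.22 ± 0.10, adjusted p = 0.286). Dusp6, an ERK phosphatase whose gene is switched on by ERK, rose by 2.95 ± 0.09 at 4OHT 10h (adjusted p = 0.000108) and fell by 5.85 ± 0.09 under PD0325901 relative to 4OHT 10h (adjusted p = 5.28e-05). Of 19 ERK feedback genes, 17 rose and 0 fell at 4OHT 10h in the limma fit, and 0 rose and 15 fell between PD0325901 and 4OHT 10h. Between 30218 and 37789 of 59305 non-control spots were above background on an array, with more on each array of replicate 1 (36889 or more) than on any of replicate 2 (31433 or fewer). The markers of primitive endoderm, a cell type these cultures can form, had a summed linear level of 318.8 to 382.0 in untreated cells, 365.7 to 441.4 at 4OHT 8h and 387.1 to 449.0 at 4OHT 10h, and of 363.6 to 483.7 under PD0325901. Sparc, named after its values were seen, made up 61.3% to 68.1% of this sum in untreated cells and 68.6% to 72.5% at 4OHT 10h. Of 20 primitive endoderm markers tested 2 were called at 4OHT 10h (both higher).

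Cells at 4OHT 8h were compared with untreated cells to ask which members differed with 4OHT. Of the 72 members, 22 were called (30.6%), 12 higher and 10 lower, against 21.7% of all genes tested (10.3% higher and 11.5% lower). Centred on the array median, which moved the median change of all genes by 0.14, the split was 17 higher and 9 lower. Of 19 HOX genes 7 were higher and 2 lower, and of 9 genes of the small families 1 was higher and 4 lower. None of the 11 NKX, 5 IRX and 3 DLX members was called at 8 h in the fit without the replicate number as a block. With that block 35 members were called, 18 higher and 17 lower, among them Nkx1-2 (adjusted p = 0.0394), Nkx2-3 (0.0477), Nkx6-2 (0.00551), Irx1 (0.0403), Irx2 (0.0178) and Dlx6os2 (0.0478). Of all genes the block called 7248, against 4932 without it. In the fit without the block, leaving out any array of the groups compared lowered the count of members called. The count of all genes called fell as well.

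At 10 h of 4OHT, 32 of the 72 members were called (44.4%), 15 higher and 17 lower, against 27.9% of all genes tested (13.1% higher and 14.8% lower). Centred on the array median, which moved the median change of all genes by 0.19, the split was 17 higher and 13 lower. Changes of at least 1 on the log2 scale made up 24 of the 32 calls, 13 higher and 11 lower, against 33.4% of the calls among all genes. The median change of the 72 was -0.12, and that of all genes tested was -0.05. Leaving out any array of the groups compared lowered the count of members called and also that of all genes called. Between the 10 h and 8 h samples no member was called in the limma fit, where 0 of 22692 genes were called (0%). At an unadjusted p under 0.05, 7 members and 1501 of all genes differed between those times, and with the replicate block 0 members were called.

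**Figure D2:**
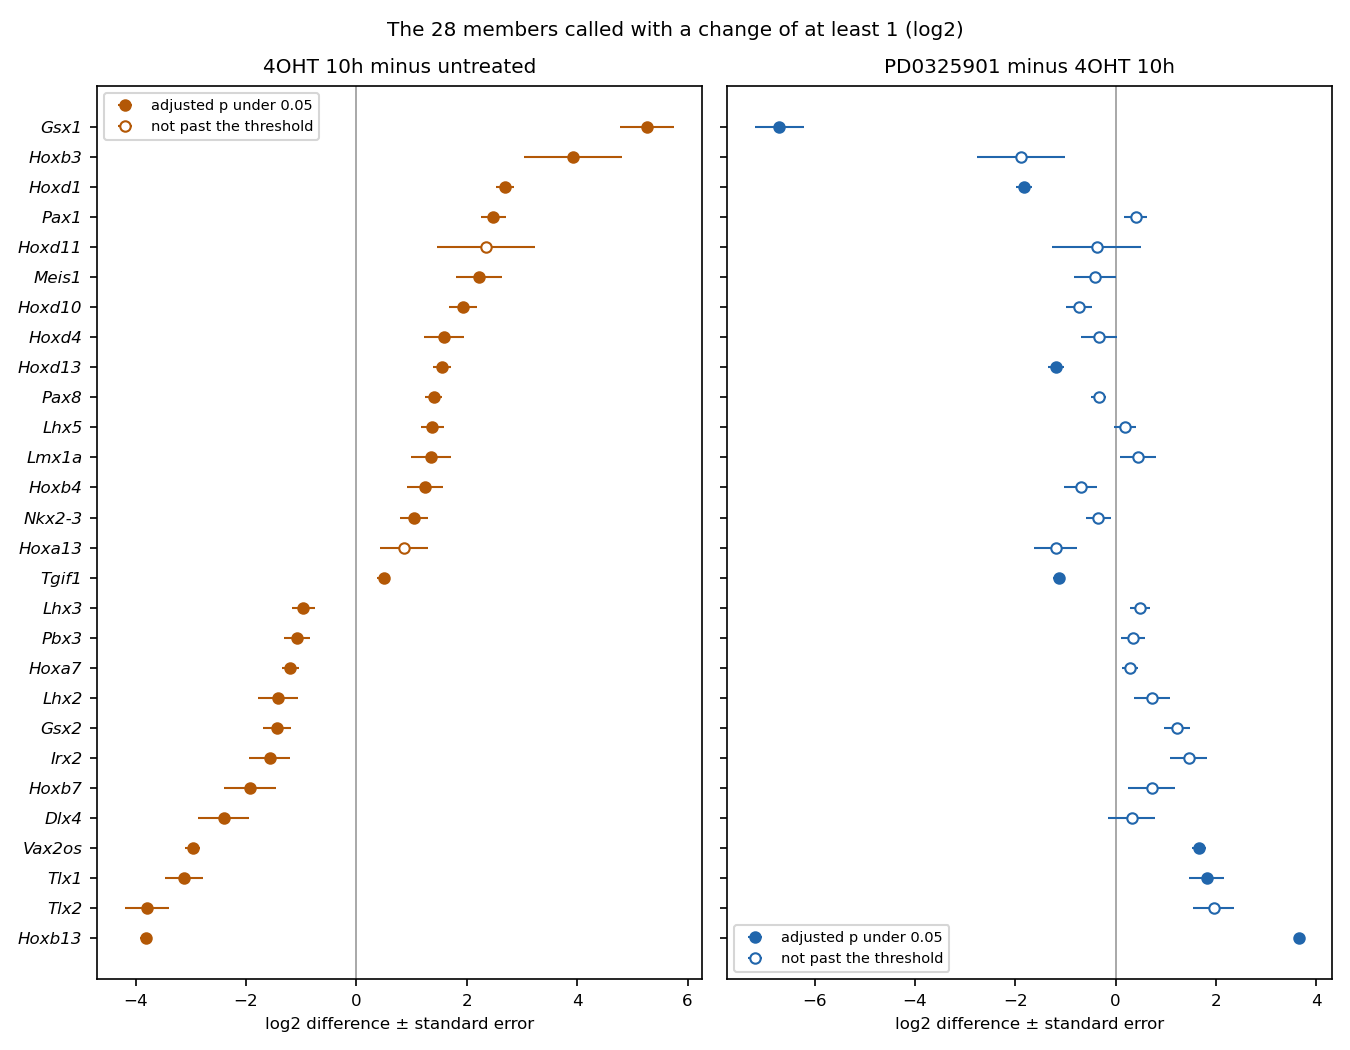
Change of the 28 members called with a log2 difference of at least 1 at 4OHT 8h, at 4OHT 10h or between PD0325901 and 4OHT 10h, as points with the standard error of the fit as bars; the left panel shows 4OHT 10h minus untreated and the right panel the PD0325901 group minus 4OHT 10h. Filled points have an adjusted p under 0.05. Gsx1 stands at 5.27 on the left and -6.71 on the right, and Hoxb13 at -3.82 and 3.66; these are fitted values, and for genes below background in a group the text gives bounds.

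Of the small families, Gsx1, a homeodomain factor of neural progenitors in the ventral forebrain and spinal cord, had the largest changes of any member. It stood at -3.36 and -2.82 in untreated cells, at 0.99 and 1.81 at 4OHT 8h and at 1.76 and 2.61 at 4OHT 10h. The 4OHT arrays lay far above the untreated ones with no overlap. Gsx1 rose by 4.49 ± 0.49 or 22.4-fold at 8 h (adjusted p = 0.00311) and by 5.27 ± 0.49 or 38.7-fold at 10 h (adjusted p = 0.00153). Under PD0325901 it stood at -5.01 and -4.03, against 1.76 and 2.61 at 4OHT 10h, a fall of 6.71 ± 0.49 or 104-fold (adjusted p = 0.00263). The PD0325901 arrays lay below the untreated ones as well, by 1.43 ± 0.49, which was not called (adjusted p = 0.106) although the fit with the replicate block called it (adjusted p = 0.00283). These 4 calls of Gsx1 (at 8 h, at 10 h and of PD0325901 against each 4OHT time) held in all 16 alternatives run. The size was less certain, as the change of Gsx1 between PD0325901 and 4OHT 10h ranged from -7.20 to -4.59 over these alternatives. Its promoter in the RefSeq table (build GRCm38.p6, chr5:147188446-147188745, plus strand) is printed with those of Hoxd13 and Six5, the other members that were above background in every group and called in both 4OHT comparisons and against 4OHT 10h under PD0325901 and that the table holds. Each runs from 250 bases before to 50 after the gene's start, at chr2:74667975-74668274 for Hoxd13 and chr7:19094294-19094593 for Six5, both on the plus strand. Capitals mark the only match found to the motifs described further on.
Gsx1: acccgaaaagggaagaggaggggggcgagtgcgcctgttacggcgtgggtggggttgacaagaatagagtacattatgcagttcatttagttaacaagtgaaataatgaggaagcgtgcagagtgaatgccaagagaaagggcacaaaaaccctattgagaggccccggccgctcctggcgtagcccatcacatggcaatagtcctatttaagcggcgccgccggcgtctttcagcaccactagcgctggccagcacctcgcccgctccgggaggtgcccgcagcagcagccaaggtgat
Hoxd13: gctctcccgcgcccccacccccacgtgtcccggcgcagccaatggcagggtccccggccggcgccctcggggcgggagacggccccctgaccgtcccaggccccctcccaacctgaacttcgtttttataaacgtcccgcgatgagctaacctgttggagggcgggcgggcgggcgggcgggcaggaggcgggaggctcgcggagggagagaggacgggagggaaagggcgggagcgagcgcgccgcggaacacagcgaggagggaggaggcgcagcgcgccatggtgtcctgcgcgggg
Six5: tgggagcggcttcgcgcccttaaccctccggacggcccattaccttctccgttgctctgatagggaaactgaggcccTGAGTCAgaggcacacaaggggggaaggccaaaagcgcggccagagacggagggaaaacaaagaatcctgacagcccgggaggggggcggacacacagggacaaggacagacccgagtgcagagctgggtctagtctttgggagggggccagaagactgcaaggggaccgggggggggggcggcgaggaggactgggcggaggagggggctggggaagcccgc

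Gsx2, which patterns the same forebrain region as Gsx1, moved the other way. It stood at -4.03 and -3.53 in untreated cells, -5.03 and -5.36 at 4OHT 8h and -5.27 and -5.18 at 4OHT 10h, with 1 of 2 arrays above background in each 4OHT group. It fell by 1.42 ± 0.26 at 8 h (adjusted p = 0.0152) and 1.44 ± 0.26 at 10 h (adjusted p = 0.0118). With PD0325901 added it stood at -3.70 and -4.30, against -5.27 and -5.18 at 4OHT 10h, which did not pass the test (1.22 ± 0.26, adjusted p = 0.0555). The call at 10 h was lost without 4OHT 10h replicate 1 (adjusted p = 0.0558), untreated replicate 2 (0.055) or 4OHT 10h replicate 2 (0.0546). That at 8 h was lost without untreated replicate 2 (0.0691) or 4OHT 8h replicate 2 (0.0808).

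The Tlx genes, needed for the spleen (Tlx1) and for gut neurons (Tlx2), both fell. Tlx2 stood at 0.84 and -0.04 in untreated cells, -2.73 and -3.12 at 4OHT 8h and -3.32 and -3.48 at 4OHT 10h. It fell by 3.32 ± 0.40 or 10.0-fold at 8 h (adjusted p = 0.00424) and by 3.80 ± 0.40 or 13.9-fold at 10 h (adjusted p = 0.00227). Under PD0325901 the Tlx2 arrays lay between the 4OHT 10h and the untreated arrays, at -0.98 and -1.91, against -3.32 and -3.48 at 4OHT 10h. That difference of 1.95 ± 0.40 missed the threshold (adjusted p = 0.0516) and passed it with the replicate block (adjusted p = 0.0111). Relative to untreated cells Tlx2 was lower by 1.84 ± 0.40 under PD0325901 (adjusted p = 0.035), a call lost without untreated replicate 1 (0.122) or PD0325901 replicate 2 (0.123) among 7 such arrays, with adjusted p = 0.0526 to 0.123.

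Tlx1 was above background on both untreated arrays (-3.37 and -3.65) and on none of the 4OHT arrays. It was therefore at least 2.58-fold lower at 8 h (adjusted p = 0.00953, but 0.055 without untreated replicate 1) and at least 2.72-fold lower at 10 h (adjusted p = 0.00261). A bound of this kind divides the mean of the group with signal by a floor for the other group. The floor on an array is the weakest signal that still passed as above background, or the signal of the probe itself if larger. An adjusted p printed beside a bound tests the fitted change and not the bound. Where the group with signal had only 1 array above background, its mean still includes the other array. The value is then not a strict bound. Under PD0325901, 1 of 2 Tlx1 arrays was above background (-4.34, and -5.30 on the other), against -6.67 and -6.60 at 4OHT 10h, and the gene was at least 1.09-fold higher (adjusted p = 0.0423). The call was lost in 11 of 16 alternatives, among them quantile normalization, normexp, an intensity trend with robust prior, and no filter on dim probes. That call was lost without any 1 of the 7 arrays other than PD0325901 replicate 2 (adjusted p = 0.0622 to 0.168).

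Vax2os, a non-coding RNA transcribed from the strand opposite Vax2, was among the members with the smallest p-values. It stood at 2.29 and 2.17 in untreated cells, -0.20 and -0.30 at 4OHT 8h and -0.59 and -0.87 at 4OHT 10h. It fell by 2.48 ± 0.14 or 5.57-fold at 8 h (adjusted p = 0.000447) and by 2.96 ± 0.14 or 7.80-fold at 10 h (adjusted p = 0.000225). Under PD0325901 it stood at 1.07 and 0.81, against -0.59 and -0.87 at 4OHT 10h, higher by 1.67 ± 0.14 (adjusted p = 0.00373) and lower than in untreated cells by 1.29 ± 0.14 (adjusted p = 0.0049). Vax2 itself, a factor of the ventral retina, had levels from 3.91 to 4.31 on the 8 arrays and was called in none of these comparisons (-0.14 ± 0.16 at 10 h, adjusted p = 0.535). The second Vax2os probe also fell at 10 h, by 1.27 ± 0.22 (adjusted p = 0.0113 in the fit of all probes), but was not called between PD0325901 and 4OHT 10h (0.17 ± 0.22, adjusted p = 0.717).

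En2, a midbrain and cerebellum factor, and Barx2 were above background on all arrays and were not called at 10 h (0.41 ± 0.16 with adjusted p = 0.116, and -0.28 ± 0.10 with adjusted p = 0.0857).

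**Figure D3:**
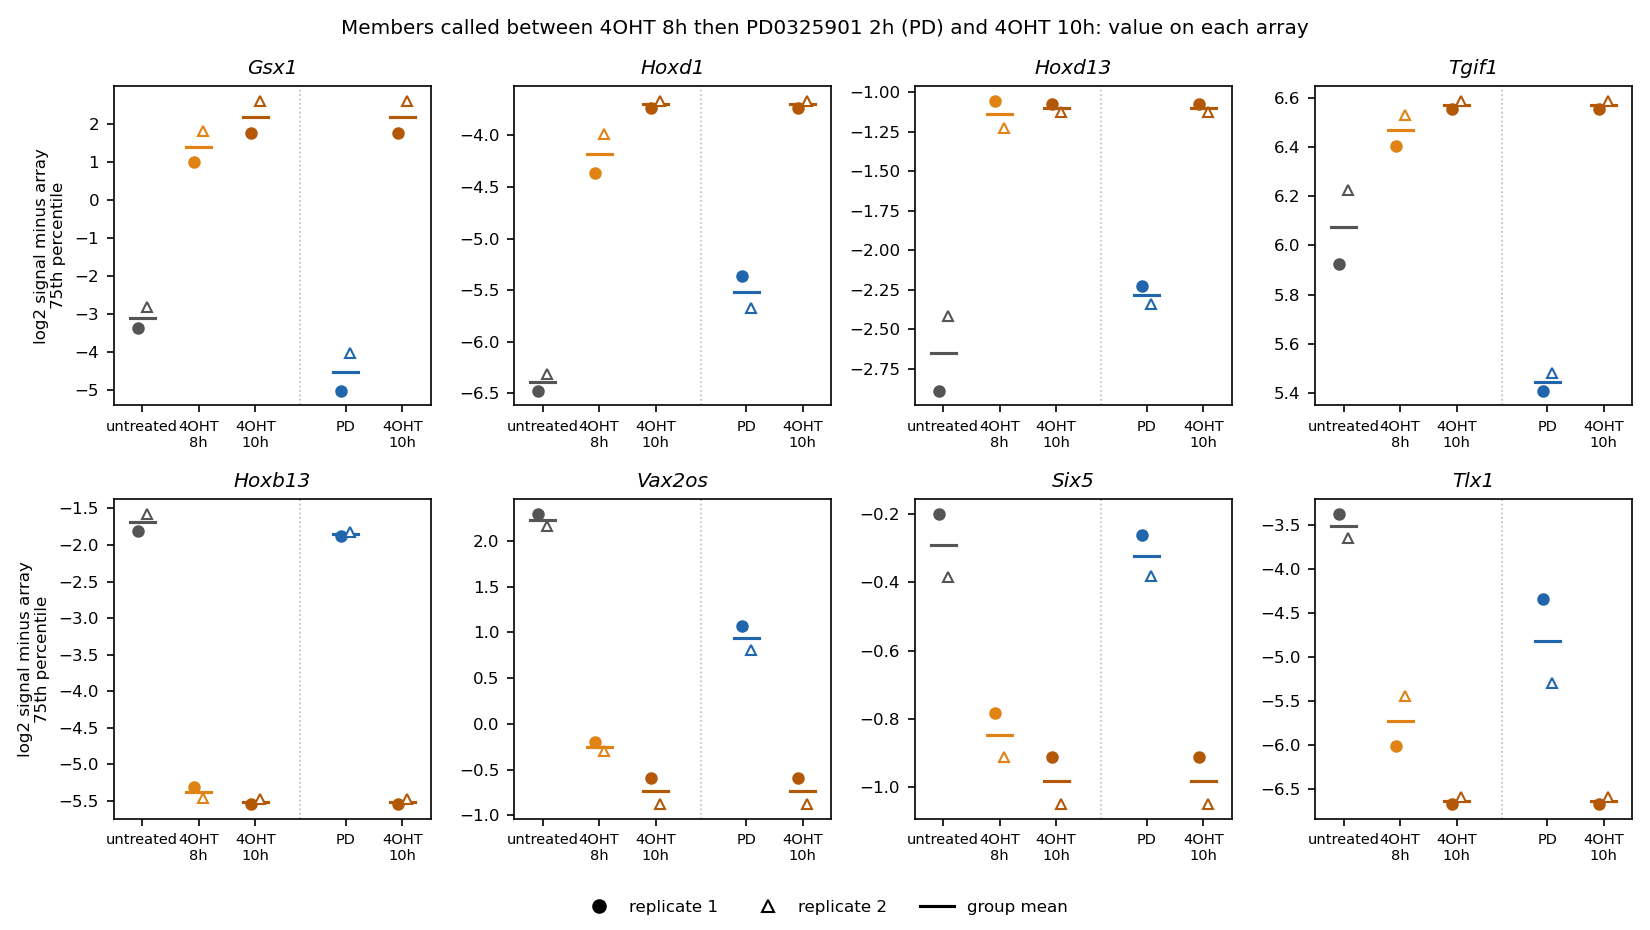
Level on each array (log2 signal minus the array's 75th percentile; circles, replicate 1; triangles, replicate 2; lines, group means) of the 8 members called between the PD0325901 group and 4OHT 10h. Left of the dotted line are untreated, 4OHT 8h and 4OHT 10h in order of time, and right of it the PD0325901 group beside 4OHT 10h. Gsx1, Hoxd1, Hoxd13 and Tgif1 were lower under PD0325901 and Hoxb13, Vax2os, Six5 and Tlx1 higher, and the PD0325901 and 4OHT 10h arrays lie apart in each panel.

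In the HoxD cluster the 5 kept genes were called higher at 8 h and 4 of them at 10 h, against 10.3% and 13.1% of all genes tested. Of the 5, Hoxd1, Hoxd4, Hoxd10 and Hoxd11 were kept through treated groups alone, which favours such a count, and Hoxd13 was above background in every group. Hoxd1, the gene at the 3′ end of the cluster, was below background on both untreated arrays (-6.47 and -6.31), stood at -4.36 and -3.99 at 4OHT 8h with 1 array above background, and at -3.73 and -3.66 at 4OHT 10h with both. It was at least 1.55-fold higher at 8 h (adjusted p = 0.00093) and at least 2.17-fold higher at 10 h (adjusted p = 0.000427). Under PD0325901 it was below background on both arrays (-5.37 and -5.67), at least 2.35-fold lower than at 4OHT 10h (adjusted p = 0.00479).

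Hoxd13, the last gene of the cluster and a factor of digit and genital development, was above background on all 8 arrays. Its levels were -2.89 and -2.41 in untreated cells, -1.05 and -1.22 at 4OHT 8h and -1.07 and -1.12 at 4OHT 10h. The 4OHT arrays lay above the untreated ones without overlap, with rises of 1.51 ± 0.17 at 8 h (2.86-fold, adjusted p = 0.00315) and 1.55 ± 0.17 at 10 h (2.94-fold, adjusted p = 0.00231). Under PD0325901 Hoxd13 stood at -2.22 and -2.34, against -1.07 and -1.12 at 4OHT 10h, lower by 1.18 ± 0.17 (2.27-fold, adjusted p = 0.0178). Without 4OHT 10h replicate 1, PD0325901 replicate 1, 4OHT 10h replicate 2 or PD0325901 replicate 2 this last call was lost (adjusted p = 0.0857, 0.0835, 0.0938 and 0.0955, in that order), while those at 8 h and 10 h held in all 16 alternatives.

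Hoxd10 was below background in untreated cells (-5.48 and -5.71), stood at -3.90 and -4.05 at 4OHT 8h (1 array above background) and at -3.89 and -3.44 at 4OHT 10h, and was at least 1.78-fold higher at 8 h (adjusted p = 0.0104) and at least 2.21-fold at 10 h (adjusted p = 0.00476). The call at 8 h was lost without 4OHT 8h replicate 1 (0.0548) or untreated replicate 2 (0.0587). Hoxd4 was likewise below background in untreated cells (-6.04 and -5.37), stood at -4.57 and -3.70 at 8 h and -4.36 and -3.87 at 10 h, and was at least 1.60-fold higher at 8 h (adjusted p = 0.0315) and at least 1.62-fold at 10 h (adjusted p = 0.0254). Its call at 8 h was lost without any of 5 arrays (0.0525 to 0.131) and at 10 h without untreated replicate 1, 4OHT 10h replicate 1 or 4OHT 10h replicate 2 (0.111, 0.0539 and 0.118). For both genes the difference between PD0325901 and 4OHT 10h was not called (-0.73 ± 0.26 with adjusted p = 0.19 for Hoxd10, and -0.32 ± 0.36 with adjusted p = 0.662 for Hoxd4).

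Hoxd11 rested on a single array at 8 h. It stood at -4.74 and -6.28 in untreated cells, -3.36 and -0.90 at 4OHT 8h and -3.04 and -3.28 at 4OHT 10h, so that 4OHT 8h replicate 2 lay more than 2 above every other array. The call at 8 h (3.38 ± 0.88, adjusted p = 0.0458) was lost without that array (0.123), without untreated replicate 2 (0.178), without any of 5 other arrays (0.0712 to 0.0772) and with the replicate block (0.0533). At 10 h Hoxd11 was not called (2.35 ± 0.88, adjusted p = 0.103).

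The 5 kept HoxB genes, of 10 on the array, went both ways. None was above background on both arrays in every group, which favours such differences. Hoxb3 and Hoxb4 were kept through the 4OHT groups alone and Hoxb7 through untreated cells alone. Hoxb13 was kept through untreated cells and the PD0325901 group, and Hoxb9 through all groups but 4OHT 8h. Hoxb13, the last gene of the cluster, known for roles in the tail bud and prostate, stood at -1.81 and -1.57 in untreated cells and was below background on all 4OHT arrays (-5.30 and -5.46 at 8 h, -5.54 and -5.48 at 10 h). It was at least 8.35-fold lower at 8 h (adjusted p = 0.000153) and at least 9.31-fold lower at 10 h (adjusted p = 0.000108). In the PD0325901 group it stood at -1.88 and -1.82, against -5.54 and -5.48 at 4OHT 10h, at least 8.33-fold higher (adjusted p = 0.00028). The PD0325901 arrays lay close to the untreated ones, and that difference was not called (-0.16 ± 0.11, adjusted p = 0.351). The calls of Hoxb13 against untreated cells and of PD0325901 against both 4OHT times held in all 16 alternatives.

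At the other end of the cluster, Hoxb3 and Hoxb4, which pattern the hindbrain, were higher. Hoxb3 was below background in untreated cells (-6.19 and -6.17), stood at -3.22 and -3.19 at 4OHT 8h and at -2.17 and -2.34 at 4OHT 10h, and was at least 5.89-fold higher at 10 h (adjusted p = 0.0244). At 8 h it was not called (adjusted p = 0.0654), although the arrays of the groups did not overlap. The PD0325901 arrays were far apart, with replicate 1 at -2.66 and replicate 2 below background at -5.63. The call at 10 h was lost if either untreated array (0.0971 and 0.0924) or either 4OHT 10h array (0.0914 and 0.0927) was left out. Hoxb4 stood at -4.65 and -5.53 in untreated cells (1 array above background), -2.98 and -3.59 at 8 h and -3.78 and -3.91 at 10 h, rising by 1.81 ± 0.33 (adjusted p = 0.0148) and 1.25 ± 0.33 (adjusted p = 0.0385). The call of Hoxb4 at 8 h was lost without 4OHT 8h replicate 1 (0.0654) and that at 10 h without any of 5 arrays (0.0677 to 0.133).

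Hoxb7 and Hoxb9, from the middle of the cluster, had levels close to background. Hoxb7 stood at -3.97 and -2.79 in untreated cells, -4.24 and -4.00 at 4OHT 8h and -4.79 and -5.82 at 4OHT 10h, with 1 array above background in each 4OHT group. It fell by 1.93 ± 0.47 at 10 h (adjusted p = 0.0324) and was not called at 8 h (-0.74 ± 0.47, adjusted p = 0.322). The call was lost without any of 6 arrays (0.0552 to 0.129). Hoxb9 fell by 0.95 ± 0.20 at 8 h (adjusted p = 0.0252), with 1 of 2 arrays above background at 4OHT 8h and both in untreated cells, and was not called at 10 h (-0.69 ± 0.20, adjusted p = 0.055). The call at 8 h was lost without any 1 of the 4 arrays compared (0.089 to 0.105).

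Of the 7 kept HoxA members, Hoxa13 was called at 8 h and Hoxa7 at 10 h, where 21.7% and 27.9% of all genes tested were. Hoxa7, a trunk gene, stood at -2.07 and -1.66 in untreated cells, -2.45 and -2.25 at 4OHT 8h and -2.99 and -3.13 at 4OHT 10h. It fell by 1.19 ± 0.16 at 10 h or 2.29-fold (adjusted p = 0.00428, held in all 16 alternatives) and was lower than in untreated cells under PD0325901 by 0.90 ± 0.16 (adjusted p = 0.0179, but 0.0682, 0.0519 and 0.0867 without PD0325901 replicate 1, untreated replicate 2 and PD0325901 replicate 2). Hoxa13 was below background in untreated cells (-5.83 and -4.62), stood at -3.23 and -3.72 at 4OHT 8h and -4.17 and -4.57 at 4OHT 10h, and was at least 2.53-fold higher at 8 h (adjusted p = 0.0392). Leaving out any 1 of 7 arrays removed that call (0.0627 to 0.151). A second kept probe of Hoxa13 was not called at 8 h (1.64 ± 0.76, adjusted p = 0.192 in the fit of all probes). Hoxa4 and Hoxa9, above background on all arrays, were not called at 8 h or 10 h, and Hoxa9 was with the replicate block at 10 h (-0.38, adjusted p = 0.021). The 2 kept HoxC genes were not called, but with the block Hoxc4 passed at 10 h (-0.86, adjusted p = 0.0321) and so did Hoxc13 (-3.11, adjusted p = 0.00776, against 0.102 without the block).

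**Figure D4:**
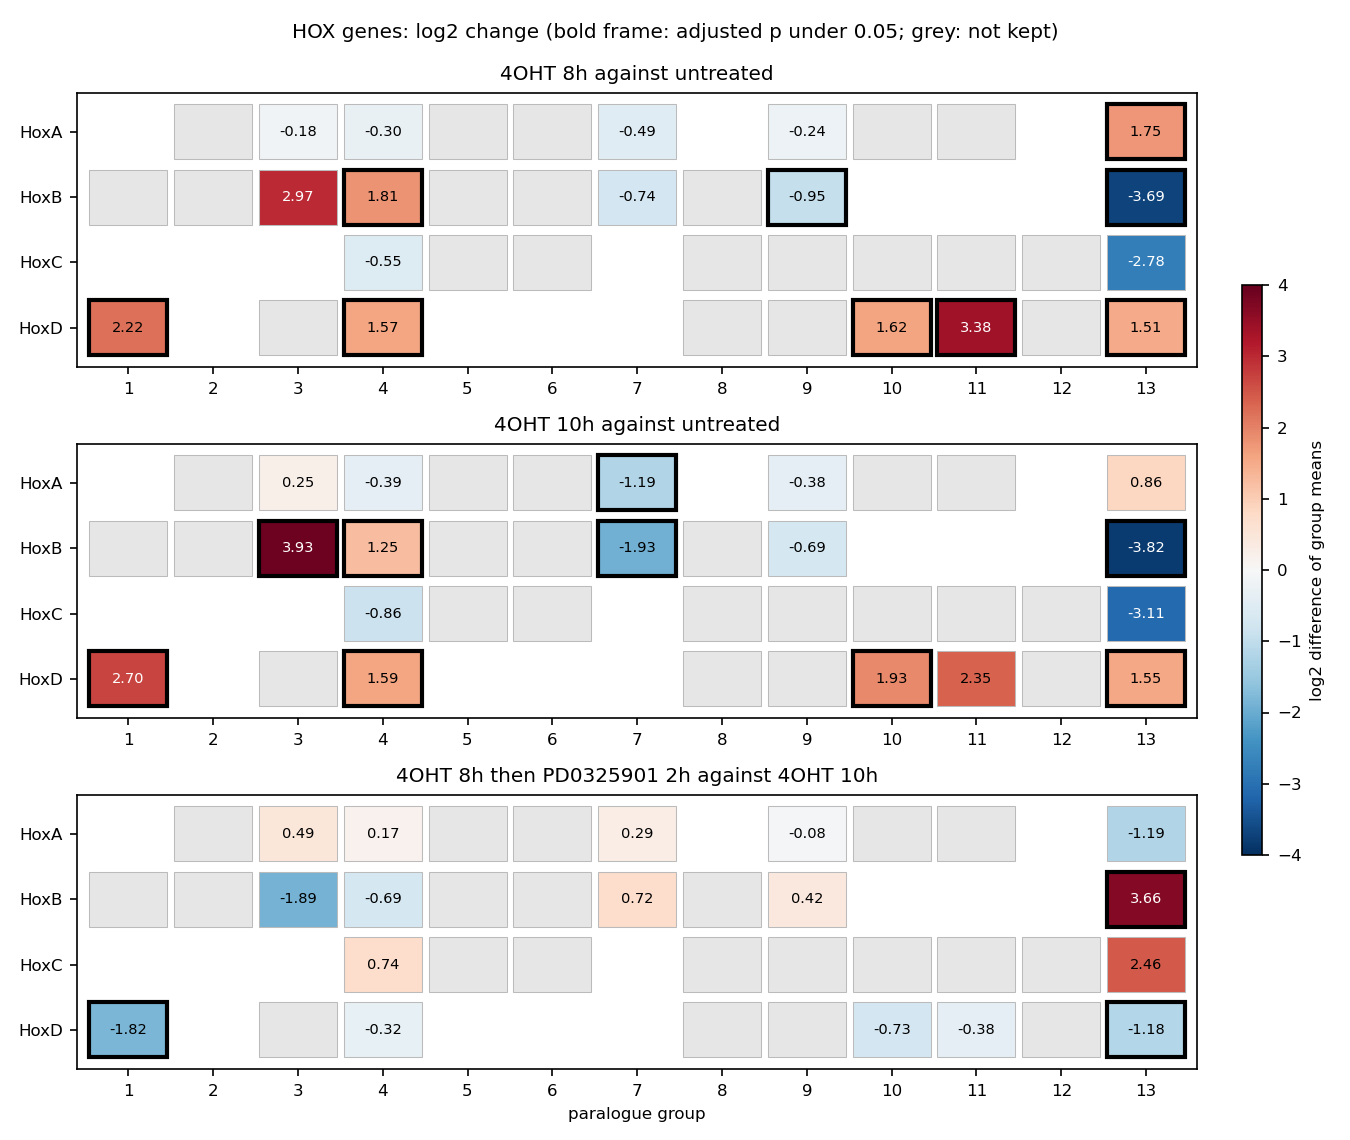
Log2 change of HOX genes by cluster (rows) and paralogue group (columns, 1 to 13) at 4OHT 8h and 4OHT 10h against untreated cells and of the PD0325901 group against 4OHT 10h. Red is higher and blue lower, bold frames mark an adjusted p under 0.05, grey genes were not kept, and blank places show no gene. In the HoxD row 5 genes are framed at 8 h and 4 at 10 h, all higher, and in the HoxC row none is framed.

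Among the HOX partners, Meis1, a cofactor that helps HOX proteins bind DNA, rose. It stood at -0.82 and -0.30 in untreated cells, 0.62 and 1.33 at 4OHT 8h and 1.24 and 2.09 at 4OHT 10h, with replicate 2 the higher in each group and no overlap with untreated cells. It rose by 2.23 ± 0.41 or 4.68-fold at 10 h (adjusted p = 0.0134), a call lost if untreated replicate 1 (0.0709) or 4OHT 10h replicate 2 (0.0619) was left out. At 8 h the difference of 1.53 ± 0.41 missed the threshold (adjusted p = 0.0505) and passed it with the block (adjusted p = 0.000903). Under PD0325901 Meis1 stood at 0.93 and 1.58, against 1.24 and 2.09 at 4OHT 10h, which was not called (-0.41 ± 0.41, adjusted p = 0.627). Pbx3, of the partner family of Meis1, fell by 1.08 ± 0.24 at 8 h (adjusted p = 0.0269) and by 1.08 ± 0.24 at 10 h (adjusted p = 0.0225). Its levels were -0.58 and -0.47 in untreated cells, -1.81 and -1.40 at 4OHT 8h and -1.78 and -1.42 at 4OHT 10h. Each of those calls was lost without any 1 of the 4 arrays compared (0.0533 to 0.112 at 8 h, 0.0515 to 0.097 at 10 h). Pbx2, Pbx4, Meis2 and Meis3 were not called at 8 h or 10 h, and Meis2 was with the block (0.59 at 8 h, adjusted p = 0.00504).

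TGIF repressors moved little with 4OHT. Tgif1, mutated in human holoprosencephaly and above background on all 8 arrays, stood at 5.92 and 6.23 in untreated cells, 6.40 and 6.53 at 4OHT 8h and 6.55 and 6.59 at 4OHT 10h. It rose by 0.50 ± 0.12 at 10 h (adjusted p = 0.0285) and was not called at 8 h (0.39 ± 0.12, adjusted p = 0.0665). Under PD0325901 it stood at 5.41 and 5.48, against 6.55 and 6.59 at 4OHT 10h, lower by 1.13 ± 0.12 or 2.18-fold (adjusted p = 0.0076). It was then also lower than in untreated cells, by 0.63 ± 0.12 (adjusted p = 0.0227, lost at 0.0637 to 0.0919 without either PD0325901 array or untreated replicate 2). The call against 4OHT 10h was lost without PD0325901 replicate 1 (0.0553) or 4OHT 10h replicate 2 (0.0566), and the rise at 10 h without untreated replicate 1 (0.0811), 4OHT 10h replicate 1 (0.0938) or 4OHT 10h replicate 2 (0.121). Tgif2 rose by 0.39 ± 0.09 at 8 h (adjusted p = 0.0371) and 0.49 ± 0.09 at 10 h (adjusted p = 0.0153), and was not called between PD0325901 and 4OHT 10h (-0.27 ± 0.09, adjusted p = 0.189). Its call at 8 h was lost without any of 6 arrays (0.0604 to 0.179) and that at 10 h without either untreated array or 4OHT 10h replicate 2 (0.0585 to 0.0781). The other kept probes of Tgif2 were not called at 8 h (0.19 ± 0.11 and 0.26 ± 0.11, adjusted p = 0.295 and 0.165 in the fit of all probes). At 10 h that fit gave them adjusted p = 0.104 and 0.0376. Tgif2lx1, which has near-identical copies so that its probe may also read a related gene, was not called.

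Pax1 and Pax8, 2 of the 4 PAX genes kept, were called higher at 8 h and 10 h. Of all genes tested, 10.3% and 13.1% were called higher at those times. Pax1, a factor of the sclerotome from which vertebrae form, stood at -2.94 and -2.26 in untreated cells, -0.59 and -0.46 at 4OHT 8h and -0.26 and 0.01 at 4OHT 10h. It rose by 2.07 ± 0.23 or 4.21-fold at 8 h (adjusted p = 0.00319) and by 2.48 ± 0.23 or 5.57-fold at 10 h (adjusted p = 0.00148). Under PD0325901 it stayed high, at 0.29 and 0.27, against -0.26 and 0.01 at 4OHT 10h (0.40 ± 0.23, adjusted p = 0.38). Relative to untreated cells it was higher by 2.88 ± 0.23 or 7.38-fold under PD0325901 (adjusted p = 0.00237), and all 3 calls against untreated cells held in the 16 alternatives.

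Pax8, which thyroid and kidney development require, stood at -2.59 and -2.91 in untreated cells, -1.08 and -1.03 at 4OHT 8h and -1.28 and -1.42 at 4OHT 10h. It rose by 1.70 ± 0.16 or 3.24-fold at 8 h (adjusted p = 0.00182) and by 1.40 ± 0.16 or 2.64-fold at 10 h (adjusted p = 0.0027). After 2 h of PD0325901 it stood at -1.52 and -1.85, against -1.28 and -1.42 at 4OHT 10h, which was not called (-0.34 ± 0.16, adjusted p = 0.293). It was higher than in untreated cells by 1.06 ± 0.16 (adjusted p = 0.0119, but 0.0526 without untreated replicate 2). Pax6, an eye and forebrain factor, and Pax7, a factor of muscle and dorsal neural progenitors, were not called at 8 h or 10 h, and Pax6 was with the block at 8 h (1.02, adjusted p = 0.0392).

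LIM homeobox genes, many of them factors of forebrain and motor neuron identity, were called for 5 of 8 members at 10 h, 2 higher and 3 lower, where 27.9% of all genes were called. Lhx5, a forebrain factor, stood at -2.95 and -3.50 in untreated cells, -1.89 and -1.75 at 4OHT 8h and -2.04 and -1.65 at 4OHT 10h. It rose by 1.40 ± 0.22 at 8 h (adjusted p = 0.0091, but 0.054 without 4OHT 8h replicate 2) and by 1.38 ± 0.22 at 10 h (adjusted p = 0.00766). Under PD0325901 it stood at -1.71 and -1.60, against -2.04 and -1.65 at 4OHT 10h (0.19 ± 0.22, adjusted p = 0.666), and was higher than in untreated cells by 1.57 ± 0.22 (adjusted p = 0.00991, but 0.0596 without PD0325901 replicate 2).

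Lmx1a, a factor of the roof plate and of midbrain dopamine neurons, was below background in untreated cells (-5.29 and -5.72), stood at -4.25 and -5.02 at 4OHT 8h and at -3.91 and -4.41 at 4OHT 10h with 1 array above background at each time, and at -3.39 and -4.04 under PD0325901 with both. It was at least 1.54-fold higher at 10 h (adjusted p = 0.0413) and at least 2.09-fold higher under PD0325901 (adjusted p = 0.0282) than in untreated cells. Each of these calls was lost without any 1 of the 4 arrays compared (0.0818 to 0.16 at 10 h, 0.0623 to 0.122 under PD0325901).

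Lhx2, a forebrain and eye factor, and Lhx3, a factor of the pituitary and motor neurons, fell. Lhx2 stood at -3.10 and -2.81 in untreated cells, -4.86 and -3.98 at 4OHT 8h and -4.13 and -4.61 at 4OHT 10h, lower by 1.47 ± 0.36 (adjusted p = 0.0383) and 1.42 ± 0.36 (adjusted p = 0.0357), with 1 array above background at each time. Its call at 8 h was lost without any of 7 arrays (0.0509 to 0.149) and that at 10 h without any 1 of the 4 compared (0.0677 to 0.153). Lhx3 fell by 1.11 ± 0.20 at 8 h (adjusted p = 0.0153) and by 0.96 ± 0.20 at 10 h (adjusted p = 0.0201), with 1 of 2 and 2 of 2 arrays above background. Leaving out untreated replicate 1 (0.0629) or either 4OHT 8h array (0.0525 and 0.0823) removed the call at 8 h. Leaving out untreated replicate 1 (0.0808) or either 4OHT 10h array (0.0901 and 0.0513) removed that at 10 h. Lmx1b fell by 0.50 ± 0.10 at 10 h (adjusted p = 0.0158), a call lost in 9 of 16 alternatives. Among these were the same 3 arrays left out (0.0723, 0.0708 and 0.0745), median centring, quantile normalization, normexp and the mean of all probes, and its second probe was not called (-0.26 ± 0.19, adjusted p = 0.34).

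Of the remaining families, Six5 was called in both 4OHT comparisons. Six5 stood at -0.20 and -0.38 in untreated cells, -0.78 and -0.91 at 4OHT 8h and -0.91 and -1.05 at 4OHT 10h. It fell by 0.56 ± 0.11 at 8 h (adjusted p = 0.0173, but 0.0758, 0.0539 and 0.0971 without untreated replicate 1, 4OHT 8h replicate 1 and 4OHT 8h replicate 2) and by 0.69 ± 0.11 at 10 h (adjusted p = 0.00712). PD0325901 samples had levels of -0.26 and -0.38, against -0.91 and -1.05 at 4OHT 10h, higher by 0.66 ± 0.11 or 1.58-fold (adjusted p = 0.0258) and overlapping the untreated arrays. That call was lost without either array of 4OHT 8h (0.0532 in each case), 4OHT 10h (0.0796 and 0.141) or PD0325901 (0.122 and 0.0862). Centring on the array median and dropping the filter on dim probes each also removed the Six5 calls at 8 h and under PD0325901. The Six5 call at 10 h held in all 16 alternatives. Six4, of the same family, was not called at 8 h or 10 h (0.26 ± 0.22 at 10 h, adjusted p = 0.426).

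Dlx4 was above background on both untreated arrays (-3.80 and -3.64), on 1 of 2 at 4OHT 8h (-4.72 and -4.51) and on none at 4OHT 10h (-5.92 and -6.32). It was at least 2.35-fold lower at 10 h (adjusted p = 0.0147, but 0.0626, 0.0701 and 0.0769 without untreated replicate 1, untreated replicate 2 and 4OHT 10h replicate 2) and was not called between PD0325901 and 4OHT 10h (adjusted p = 0.743). Irx2, of a family that patterns neural tissue and heart, stood at -2.05 and -2.05 in untreated cells, -2.85 and -3.67 at 4OHT 8h and -3.44 and -3.81 at 4OHT 10h, and fell by 1.57 ± 0.37 at 10 h (adjusted p = 0.0271). Under PD0325901 it stood at -1.75 and -2.57, against -3.44 and -3.81 at 4OHT 10h, which passed the threshold only with the block (1.46, adjusted p = 0.0237, against 0.0862 without it). The call of Irx2 at 10 h was lost without any 1 of the 4 arrays compared (0.0667 to 0.123), and a second, dimmer Irx2 probe was kept too.

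Of the 11 NKX members, Nkx2-3, a factor of spleen and gut mesoderm, rose by 1.04 ± 0.25 at 10 h (adjusted p = 0.0303, lost without any of 5 arrays at 0.0511 to 0.112), and Nkx1-2 was called lower by its brightest probe (-0.28 ± 0.08, adjusted p = 0.0409, lost without any of 6 arrays at 0.081 to 0.189). Of the 11 NKX members 2 were thus called at 10 h, where 27.9% of all genes tested were. Nkx6-2, a factor of neural progenitors and oligodendrocytes, stood at -2.35 and -3.04 in untreated cells, -1.07 and -2.08 at 4OHT 8h and -0.69 and -1.61 at 4OHT 10h. Its replicates differed in the same direction in every group, and it was called with the replicate block (1.55 at 10 h, adjusted p = 0.0019) but not without it (adjusted p = 0.0621). Under PD0325901 Nkx6-2 stood at -2.12 and -2.61, against -0.69 and -1.61 at 4OHT 10h, again called with the block (-1.22, adjusted p = 0.0118) and not without it (adjusted p = 0.226).

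The 2 h of PD0325901 were compared with the 10 h of 4OHT to ask which members differed after MEK inhibition, although the sample titles name a pulse and chase and whether 4OHT was withdrawn during those 2 h is not stated. If it was, its removal and MEK inhibition cannot be told apart. Of the 72 members, 8 were called (11.1%), 4 higher and 4 lower, against 6.12% of all genes tested (3.25% higher and 2.87% lower). The 4 that fell were Gsx1, Hoxd1, Hoxd13 and Tgif1, and the 4 that rose were Hoxb13, Vax2os, Six5 and Tlx1. With the replicate block 16 were called, 11 higher and 5 lower, and of all genes 2821, against 1389 without it. In the fit without the block, leaving out any array of the groups compared lowered the count of members called. The count of all genes called fell as well. Relative to 4OHT 8h, the moment at which the inhibitor was added, 7 members were called, 3 higher and 4 lower (9.72%, against 6.52% of all genes, 3.41% higher and 3.11% lower). They were the members just named without Tlx1. Without single arrays Gsx1 and Hoxb13 kept this call, while Six5 lost it without any 1 of the 8 (adjusted p = 0.0617 to 0.211) and Hoxd13 without any 1 of the 4 compared (0.0765 to 0.0961). Hoxd1 lost it without 4OHT 8h replicate 2 (0.0531) or PD0325901 replicate 2 (0.0621), Vax2os without PD0325901 replicate 1 (0.0574) or 4OHT 8h replicate 2 (0.0659), and Tgif1 without either PD0325901 array or 4OHT 8h replicate 2 (0.0557 to 0.065). With the block 21 members were called relative to 4OHT 8h, and of all genes 3184, against 1479 without it. In the fit without the block, leaving out any array of these groups lowered the count of members called. The count of all genes called fell as well.

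Comparisons of PD0325901 with 4OHT 8h and of 4OHT 10h with untreated cells share no array. Of the 15 members higher at 10 h, 11 (73.3%) had a lower mean under PD0325901 than at 4OHT 8h and 4 (26.7%) were called lower, against 71.9% and 15.8% of all 2978 genes higher at 10 h. Of the 17 members lower at 10 h, 11 (64.7%) had a higher mean and 3 (17.6%) were called higher, against 66.2% and 14.0% of all 3354. The members' shares in direction lay near those of all genes.

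Against untreated cells, 14 of 72 members were called under PD0325901 (19.4%, against 15.8% of all genes tested), 7 higher and 7 lower (7.05% and 8.79% of all genes). Pax1, Pax8, Lhx5, Meis1, Lmx1a and Hoxd10 were higher, and Vax2os, Tlx2, Dlx4, Hoxa7, Lmx1b, Tgif1 and Dlx6os2 lower. Hoxd1 was the other call, but it was above background in neither group, so no fold is given. Single arrays decided several of these calls. Dlx6os2 lost its call without any of 7 arrays (adjusted p = 0.0518 to 0.112), Dlx4 and Meis1 without any of 6 (0.0612 to 0.135 and 0.052 to 0.157), Hoxd10 without any of 5 (0.0621 to 0.137) and Hoxd1 without any 1 of the 4 compared (0.0542 to 0.0994). Lmx1b lost it without PD0325901 replicate 2 (0.0563). Of the other members, Tlx2, Lmx1a, Hoxa7, Tgif1, Lhx5 and Pax8 each lost the call without at least 1 array (0.0519 to 0.123), and Pax1 and Vax2os kept it without any single array. With the block 23 members were called, and of all genes 6283, against 3594 without it. In the fit without the block, leaving out any untreated, 4OHT 8h or PD0325901 array lowered the count of members called. The count of all genes called fell as well.

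For some members the choice of probe mattered. Lhx6, which directs cortical interneurons, had a bright probe that was not called at 10 h (-0.13 ± 0.11, adjusted p = 0.412 in the fit of all probes). Its second probe stood at -2.42 and -2.10 in untreated cells, -3.15 and -3.39 at 4OHT 8h and -3.94 and -4.08 at 4OHT 10h (1 array above background), and fell by 1.75 ± 0.15 (adjusted p = 0.00138). Under PD0325901 that probe was higher than at 4OHT 10h by 0.78 ± 0.15 (adjusted p = 0.0469). Nkx1-2, expressed in the tail bud, had probes called in opposite directions at 10 h, at -0.28 ± 0.08 for the brighter (adjusted p = 0.0464) and 2.72 ± 0.44 for the dimmer (adjusted p = 0.00905). The dimmer probe was above background on 1 of 2 untreated arrays (-5.21 and -6.52) and stood at -3.04 and -3.25 at 4OHT 10h. Which transcripts these probes read was not tested.

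**Figure D5:**
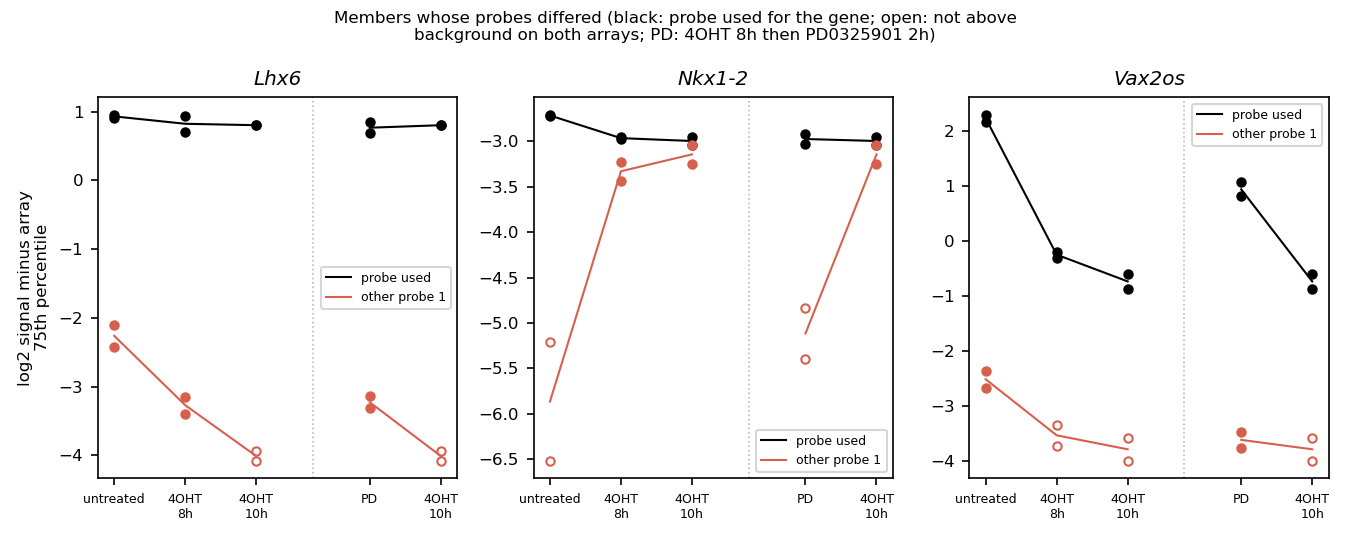
Level on each array (points) and group mean (lines) of each kept probe of 3 members whose probes differed, in log2 signal minus the array's 75th percentile; black is the probe used for the gene, open points are groups without both arrays above background, and the axis runs as untreated, 4OHT 8h and 4OHT 10h, then the PD0325901 group beside 4OHT 10h. The Nkx1-2 probes moved in opposite directions at 10 h, by -0.28 and 2.72.

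Replicates of some members differed alike in every group. In all 4 groups replicate 1 was more than 0.5 above replicate 2 for Hoxc13 and Nkx6-3, and more than 0.5 below it for 4 members, among them Gsx1, Meis1 and Meis2. These 6 made up 8.33% of the members, against 1.68% of all genes tested. Irx3 differed most within a group, at -7.18 and -1.84 at 4OHT 8h, and was not called at any time (1.18 ± 1.64 at 8 h, adjusted p = 0.654).

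Regulators of HOX genes were also measured, and the counts of each list stand beside 27.9% of all genes called at 10 h and 6.12% between PD0325901 and 4OHT 10h. Of 9 trunk and posterior regulators of HOX genes tested, 5 rose and 1 fell at 10 h, and 0 rose and 2 fell between PD0325901 and 4OHT 10h in the limma fit. Cdx2, an activator of trunk HOX genes, stood at -4.41 and -3.65 in untreated cells, 2.07 and 2.60 at 4OHT 8h and 2.06 and 2.95 at 4OHT 10h, a rise of 6.53 ± 0.43 at 10 h (adjusted p = 0.000557). Under PD0325901 Cdx2 stood at 0.78 and 1.44, against 2.06 and 2.95 at 4OHT 10h, which was not called (-1.39 ± 0.43, adjusted p = 0.145). Brachyury (T) rose by 3.89 ± 0.25 at 10 h (adjusted p = 0.000501, from 1 of 2 untreated arrays above background) and Gbx2, a hindbrain factor, by 2.71 ± 0.16 (adjusted p = 0.000414). Gbx2 fell by 4.37 ± 0.16 under PD0325901 relative to 4OHT 10h (adjusted p = 0.000544). The summed linear level of this list was 7.80 to 7.85 under PD0325901, 30.5 to 33.8 at 4OHT 10h and 5.81 to 6.50 in untreated cells, and Gbx2 alone made up 52.4% to 62.1% of it at 4OHT 10h.

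Retinoic acid is a morphogen that activates HOX genes at the 3′ ends of the clusters. Of 17 genes for its metabolism and receptors, 4 rose and 5 fell at 10 h, and 3 rose and 2 fell between PD0325901 and 4OHT 10h. Cyp26a1, which degrades retinoic acid, rose by 5.73 ± 0.10 at 10 h (adjusted p = 3.83e-05, from 1 of 2 untreated arrays above background) and fell by 3.65 ± 0.10 under PD0325901 relative to 4OHT 10h (adjusted p = 0.00028). Dhrs3, which turns retinal back into retinol, fell by 3.33 ± 0.12 at 10 h (adjusted p = 0.000118) and rose by 2.17 ± 0.12 under PD0325901 (adjusted p = 0.0015). Aldh1a3, which makes retinoic acid, rose by 6.09 ± 0.33 at 10 h (adjusted p = 0.000322, from 1 of 2 untreated arrays above background) and was not called under PD0325901 (-1.32 ± 0.33, adjusted p = 0.0841).

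Polycomb and trithorax proteins keep HOX genes off or on. Of 38 such genes 10 rose and 6 fell at 10 h, and 3 rose and 3 fell between PD0325901 and 4OHT 10h. Jarid2 and Phf19, accessory subunits of polycomb complex PRC2, rose at 10 h by 1.12 ± 0.07 (adjusted p = 0.000479) and 0.92 ± 0.10 (adjusted p = 0.0022). Of 19 cofactors of LIM, sine oculis, HOX and PAX proteins 4 rose and 6 fell at 10 h, among them the MEIS relative Pknox2 (-3.37 ± 0.11, adjusted p = 0.000108, with 1 of 2 arrays above background at 10 h) and the corepressor Tle4 (1.25 ± 0.14, adjusted p = 0.00251). The LIM-only gene Lmo1 fell by 4.26 ± 0.53 (adjusted p = 0.00375, 1 of 2 arrays above background at 10 h). No cofactor was called between PD0325901 and 4OHT 10h in the limma fit (0 of 19).

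Of 61 homeobox genes tested outside these families, 15 rose and 16 fell at 10 h, and 6 rose and 8 fell between PD0325901 and 4OHT 10h. The POU gene Pou4f2 rose by 3.24 ± 0.10 at 10 h (adjusted p = 0.000108) and fell by 1.43 ± 0.10 under PD0325901 (adjusted p = 0.00256), and Hopx, whose protein does not bind DNA, rose by 4.63 ± 0.19 (adjusted p = 0.000158) and fell by 1.12 ± 0.19 (adjusted p = 0.0307).

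Markers of other cell types were measured too. Krt18 and Thy1 are named below after their values were seen. Of 14 trophoblast markers 8 rose and 3 fell at 10 h, with a summed linear level of 62.8 to 75.8 at 4OHT 10h and 24.1 to 27.1 in untreated cells, of which Krt18 made up 61.7% to 62.9% at 4OHT 10h, and Elf5 and Tpbpa were not kept. Of 13 neural progenitor markers 3 rose and 5 fell at 10 h, with summed levels of 85.7 to 86.6 at 4OHT 10h and 39.8 to 47.7 in untreated cells. Under PD0325901 the neural sum was 40.2 to 41.6, and Olig2, Neurog2 and Fabp7 were not kept. Of 7 fibroblast markers tested 2 rose and 2 fell at 10 h, with sums of 21.5 to 43.4 at 4OHT 10h and 5.42 to 6.34 in untreated cells, of which Thy1 made up 87.0% to 94.0% at 4OHT 10h, and Col3a1, Postn, Lum and Dcn were not kept. Their part in the members' changes was not tested.

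The printed promoters were searched on both strands for 6 motifs, chosen after the results were known: the AP-1 site TGANTCA, the ETS core CCGGAA, the cAMP response element TGACGTCA, the homeodomain core TAATTA, the CDX site TTTATG and the CArG box. Of these the Six5 promoter held 1 AP-1 match, which begins 173 bases before the start, and those of Gsx1 and Hoxd13 held none of the 6. Of the 72 members 49 matched the promoter table, with 61 promoters. The AP-1 letters were in 4.92% of those 61 promoters and in 7.81% of all 32851 of the same length, and the ETS core in 19.7% and 14.9%. The CDX site was in 9.84% and 11.8%, the homeodomain core in 3.28% and 5.29%, the cAMP response element in 1.64% and 1.79% and the CArG box in 1.64% and 1.63%. A match describes letters in a window and is not evidence of binding.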

How the data were processed

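RNA from mouse embryonic stem cells was measured on 8 single-colour Agilent arrays. The deposited scanner output gives a processed signal per spot, an intensity with background subtracted and no scaling between arrays, from Feature Extraction 11.0.1.1 per the file headers. The deposited value table holds the same intensity rounded (largest difference 0.497%), linear and not centred, with medians of 29.9, 23.5, 21.6 and 22.4 for replicate 1 and 27.9, 26.5, 23.7 and 23.9 for replicate 2 (untreated, 4OHT 8h, 4OHT 10h, PD0325901 group). The deposited marks are a score of 0 or 1 for spots well above background, saturated (0 spots) or outlying (169 to 249 per array, left out). The labels name Cy5 while the files hold one channel under the name of green, which changes no direction. Symbols came from a RefSeq table of assembly GRCm38.p6, matched for 27656 of 55681 probes. The array design uses mm9, so no coordinates of probes are given.

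Log2 of the processed signal minus each array's 75th percentile (309.0 to 392.6) was analysed with limma 3.58.1 in R 4.3.3, after reading with Python 3.11.15, pandas 2.3.3 and numpy 2.4.6. Probes well above background on each array of 1 or more groups were kept (30336), and a gene took its brightest kept probe. The 8 arrays entered a single fit with a mean for each group (4 residual and 1.71 prior degrees of freedom), tested two-sided, with p-values adjusted by Benjamini-Hochberg across 22693 features, a threshold of 0.05 and no fold minimum. Samples with the same replicate number deviated together (r = 0.287 to 0.358 in all 6 pairs of groups), so a fit with the replicate number as a block is given for some genes. That limma fit also called members given above only as not called, among them Tgif1 at 8 h (adjusted p = 0.0261) and Hoxb9 at 10 h (0.0467). The normexp alternative used the median signal and median background with an offset of 50, as the files used here hold no mean signal. Members with a called change of at least 1 on the log2 scale at 4OHT 8h, at 4OHT 10h or between PD0325901 and 4OHT 10h are described by array, the 24 largest first, with others of each family by example and up to 3 called genes of each list. The scripts were tested on simulated data. The members, the lists and the tests were chosen with earlier results of these data known. The number of arrays limits the precision. Results for some genes are not reported here.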

Additional observations from a re-analysis of the deposited data

How the results depend on the processing

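Each result was recomputed under 16 alternatives. Of 1328 comparisons of a called member with an alternative (83 calls), 1015 kept the call and its direction, 312 kept the direction and lost the call, and 1 reversed. The reversal was Nkx1-2 at 4OHT 10h, at 1.22 with the mean of all kept probes (adjusted p = 0.0144), since its probes disagree. Without the filter on dim probes, more probes are tested and chosen, and the members called numbered 11 at 4OHT 8h, 16 at 4OHT 10h, 5 for PD0325901 against 4OHT 10h, 2 against 4OHT 8h and 4 against untreated cells. Among all genes the calls then numbered 2303, 3306, 333, 358 and 1069 in that order, against 4932, 6332, 1389, 1479 and 3594 in the main fit. With the replicate block the members called numbered 35 at 4OHT 8h, 16 for PD0325901 against 4OHT 10h, 21 against 4OHT 8h and 23 against untreated cells. Among all genes the block gave 7248, 2821, 3184 and 6283 in that order. At 4OHT 10h the block gave 40 members and 8859 among all genes. The only call it removed was Hoxd11 at 4OHT 8h (adjusted p = 0.0533).

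Leaving out each array in turn gave 12 to 21 called members at 4OHT 8h, 15 to 29 at 4OHT 10h, 4 to 8 for PD0325901 against 4OHT 10h, 2 to 9 against 4OHT 8h, 5 to 12 against untreated cells and 0 to 0 between 4OHT 10h and 4OHT 8h. Where this left a group with 1 array, that array was assumed to vary like the other groups. In each comparison with called members, the calls among all genes also fell when an array of either group compared was left out. Centring on the array median moved the median of all genes by 0.14 at 4OHT 8h, 0.19 at 4OHT 10h and 0.11 for PD0325901 against untreated cells. Under normexp the split at 4OHT 8h was 14 higher and 8 lower, and the call of Hoxd1 between PD0325901 and 4OHT 10h was lost (adjusted p = 0.0523). Members near background have only bounds, which hold for the main processing alone, and their fitted changes depend on the background correction. At 4OHT 10h the change of Hoxb3 ranged from 1.07 to 4.12 over the 16 alternatives, and that of Tlx1 from -3.27 to -0.52.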
